A study of Rattus norvegicus with 4 samples.

Results

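The genes described here encode the neuropeptides by which pain-sensing neurons and injured sensory neurons are usually known: Calca, Calcb, Tac1, Gal, Npy, Vip, Sst, Adcyap1, Nppb and Nts. They were chosen by gene name and protein-coding biotype, and are 10 of the 22293 protein-coding genes measured in the lumbar dorsal root ganglia (DRGs) of the rat. Reads were assigned to 9 of the 10, and 8 passed the filter on low counts, among 14719 genes that did. The other two were Vip, with 2 to 12 counts per library, and Npy, with 0 counts in every library. RNA sequencing covered 4 libraries of wild-type (WT) neonatal Wistar rats, 2 from rats given vehicle (PBS) and 2 from rats given 0.3 mg/kg cisplatin, a platinum drug against tumours, both by intraperitoneal injection. The comparison asked which transcripts differ in the ganglia of rats treated with cisplatin early in life. The study's methods give the injections on 2 occasions, the later at P16 (postnatal day). Tissue was collected 16 days after treatment according to the labels, whereas those methods place it at P23. Each library pooled several lumbar DRGs. The study used male and female rats, and the sex behind each library was not given in the sources used here.

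In a DRG, sensory neuron cell bodies lie among satellite glia, Schwann cells, fibroblasts, vessels and resident macrophages. Peptidergic nociceptors are the pain-sensing neurons that package peptides into dense-core vesicles and release them from both ends of the axon, in the spinal dorsal horn and in the skin, where calcitonin gene-related peptide (CGRP) dilates vessels and substance P makes them leak. Cutting a peripheral nerve is known to switch sensory neurons to another set of peptides, of which galanin, neuropeptide Y, vasoactive intestinal peptide and PACAP are the classical members. Somatostatin and natriuretic polypeptide B mark a separate group of small neurons that convey itch.

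The libraries held 21384801 to 25618417 counts, and 3 counts were worth 0.118 to 0.152 CPM (counts-per-million of library size, scaled with TMM factors). All 10 sensory neuron markers passed the filter and summed to 12808 to 21649 CPM, so transcripts of sensory neurons were abundant in every library. Vehicle replicate 1 stood apart in its spinal cord and skeletal muscle markers. Its spinal cord markers summed to 123 CPM, against 20.0 to 35.6 CPM in the other 3 libraries, and its skeletal muscle markers to 629 CPM, against 18.8 to 63.0 CPM. Schwann cell markers differed between libraries within both groups. They summed to 61698 and 156660 CPM with vehicle and 48178 and 137390 CPM with cisplatin, the higher value in replicate 2 of each group. Their part in the peptide values was not tested. The mitochondrial share of counts was 1.46% and 2.52% with vehicle and 5.38% and 4.68% with cisplatin. Over all genes tested, the closest pair of libraries was vehicle replicate 2 with cisplatin replicate 2 (chi-square per degree of freedom 47.6). The furthest pair was vehicle replicate 2 with cisplatin replicate 1 (261), and no pair agreed within sampling noise. Values with a library left out are given beside the peptide genes. For the genes of other lists named by the rule in the processing section, values without vehicle replicate 1 are given where it moved them by over 1.5 times or turned them. For cell type markers and for genes chosen after their values were seen, such values are not given, so their dependence on that library is not shown. Values of those lists without each of the other libraries are not given.

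Ordered by level per gene length, as FPKM (fragments per kilobase of gene, scaled to library size), the peptides ran from Calca down to Npy. Calca had a mean of 731 FPKM over the 4 libraries, rank 71 of the protein-coding genes. Tac1 (192 FPKM, rank 405), Sst (157 FPKM, rank 495) and Calcb (117 FPKM, rank 697) followed, and their ranges across libraries overlapped one another. Adcyap1 at 31.3 FPKM (rank 2687) lay below these, with no overlap with any neighbour in the order. Gal (9.42 FPKM, rank 6594) and Nppb (4.4 FPKM, rank 9179) overlapped slightly, since the highest Nppb value, 7.96 FPKM, exceeded the lowest Gal value, 7.47 FPKM. Nts had a mean of 0.695 FPKM, and the counts of Vip and Npy were at or near the floor. Calca alone made up 55.6% and 63.3% of the summed FPKM of the 10 genes in the vehicle-treated libraries and 56.6% and 61.9% in the cisplatin-treated ones. CGRP, tachykinin and somatostatin transcripts thus led the order in every library, with the injury peptides below them.

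**Figure D1:**
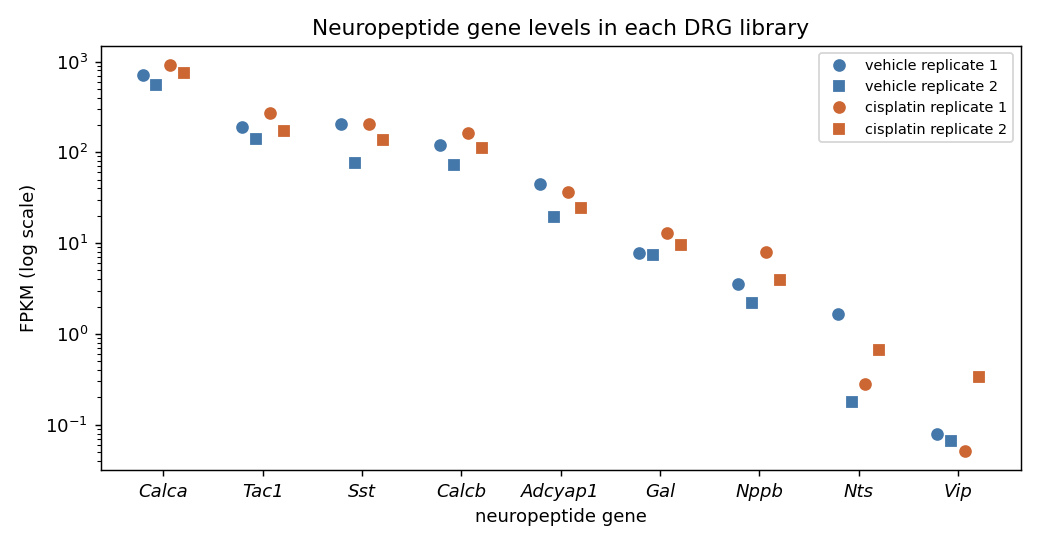
FPKM of each neuropeptide gene (log axis) in vehicle replicates 1 and 2 (blue) and cisplatin replicates 1 and 2 (orange), 1 point per library, with genes ordered by their mean. Calca lies between 548 and 911 FPKM and Vip below 1 FPKM in every library, and Npy, at 0 in all 4 libraries, cannot be drawn on a log axis.

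None of the 8 genes that passed the filter was called different between the groups. A call needed a Benjamini-Hochberg adjusted p under 0.05 in edgeR's quasi-likelihood test, fitted over all 14719 genes, and a fold change of at least 1.5. Only 1 gene of the whole table was called (0.00679%), and it was no neuropeptide. At an unadjusted p under 0.05, 0 of the 8 passed in edgeR, against 9.57% of all genes, and DESeq2 called 0 of them and had 0 at that unadjusted p, against 0.549% of all genes called and 7.63% at that p. The log2 fold changes (cisplatin against vehicle) of 6 genes were above 0 and of 2 below, with a median of 0.41 beside -0.01 over all genes tested. In 3 of the 8, Calca, Gal and Nppb, both cisplatin libraries lay above both vehicle libraries, an arrangement that 20.6% of all genes showed. In none of them did both lie below, against 21.2% of all genes, and the other 5 overlapped. Without vehicle replicate 1, both cisplatin libraries lay above the remaining vehicle library in 8 of 8 genes, against 35.8% of all genes. Without vehicle replicate 2 they lay above in 3 and below in 3, against 33.4% and 33.3% of all genes. The remaining cisplatin library lay above both vehicle libraries in 3 of 8 without cisplatin replicate 1 and in 5 of 8 without cisplatin replicate 2, against 31.9% and 37.7% of all genes, and below both in 0 of 8 each time, against 33.9% and 38.7%. An exact permutation test of any single gene with 2 against 2 libraries cannot give a two-sided p below 0.333. In bulk tissue, fewer cells of a type and less RNA per cell cannot be told apart.

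The genes of the CGRP and tachykinin peptides, which carry most of the peptidergic signal, were higher in mean after cisplatin, by less than the test could separate from replicate spread. Calca (ENSRNOG00000011130, Rnor_6.0 chromosome 1, 184184020 to 184188911, minus strand) encodes calcitonin and, by alternative splicing, alpha-CGRP, which gene counts do not separate. It measured 957 and 739 CPM in the vehicle libraries and 1216 and 996 CPM in the cisplatin libraries. Both cisplatin values were above both vehicle values, but the gap between cisplatin replicate 2 and vehicle replicate 1 was narrow. The means were 848 ± 154 CPM and 1106 ± 156 CPM (SD, n = 2), a log2 fold change of 0.38 (SE 0.31, 95% interval -0.38 to 1.15, edgeR adjusted p = 0.691). With a library left out it ran from 0.21 without vehicle replicate 2 to 0.59 without vehicle replicate 1.

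Calcb (ENSRNOG00000011074, chromosome 1, 184271590 to 184276475, plus strand) encodes beta-CGRP. Its values were 118 and 71.7 CPM with vehicle and 160 and 110 CPM with cisplatin, so that cisplatin replicate 2 lay within the vehicle range. Its log2 fold change was 0.51 (SE 0.32, 95% interval -0.28 to 1.30, edgeR adjusted p = 0.615), which ran from 0.20 without vehicle replicate 2 to 0.92 without vehicle replicate 1. Calcb made up 14.4% and 11.7% of the joint Calca and Calcb FPKM with vehicle and 15.2% and 13.1% with cisplatin. These shares overlapped between groups, so the balance of the CGRP genes was not separated by treatment.

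Tac1 (ENSRNOG00000007374, chromosome 4, 33638709 to 33646819, plus strand) encodes the precursor of substance P and neurokinin A. It measured 226 and 169 CPM with vehicle and 328 and 204 CPM with cisplatin, again with cisplatin replicate 2 inside the vehicle range. The log2 fold change was 0.43 (SE 0.30, 95% interval -0.33 to 1.18, edgeR adjusted p = 0.652), and leaving out cisplatin replicate 1 took it to 0.05. Per 100 FPKM of Calca there were 26.2 and 25.4 FPKM of Tac1 with vehicle and 29.9 and 22.7 FPKM with cisplatin. The ratio of these co-expressed peptides thus overlapped between the groups, with the wider spread in the cisplatin-treated group.

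Of the injury peptides Gal, Vip, Npy and Adcyap1, only Gal had groups that did not overlap. Gal (ENSRNOG00000015156, chromosome 1, 218652917 to 218657925, minus strand) encodes galanin, which is scarce in intact sensory neurons and induced by axotomy. It measured 6.71 and 6.50 CPM (168 and 128 counts) in the vehicle libraries and 11.1 and 8.29 CPM (281 and 195 counts) in the cisplatin libraries. The vehicle libraries were close together and both cisplatin libraries exceeded them. The means were 6.61 ± 0.147 CPM and 9.67 ± 1.96 CPM (SD, n = 2), with a log2 fold change of 0.55 (SE 0.27, 95% interval -0.13 to 1.23, unadjusted p = 0.0924 and adjusted p = 0.550 in edgeR). Leaving out a library gave 0.34 to 0.74, the lowest without cisplatin replicate 1.

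Vip (ENSRNOG00000018808, chromosome 1, 42169501 to 42177579, plus strand), for vasoactive intestinal peptide, had 3 and 2 counts with vehicle and 2 and 12 counts with cisplatin. Only cisplatin replicate 2 stood above the rest, and its exact Poisson interval of 6.20 to 20.96 counts overlapped that of vehicle replicate 1, 0.619 to 8.77 counts. These intervals cover counting error only, since PCR copies of a molecule were not marked. With no filter on low counts the edgeR log2 fold change was 1.32 (SE 1.08, 95% interval -1.27 to 3.92, adjusted p = 0.708), and it was 2.15 without cisplatin replicate 1. Vip and Nppb are also on a list of genes that the study drew from these same libraries, so their direction is not independent evidence.

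Npy (ENSRNOG00000009768, chromosome 4, 79557854 to 79565097, plus strand), for neuropeptide Y, had 0 counts in all 4 libraries, which at 3 counts allows up to 0.118 to 0.152 CPM per library for reads assigned to that gene. The annotation carries another gene with the same protein description, LOC100912228 (ENSRNOG00000046449), that begins 8901 bases beyond the end of Npy and had 0, 0, 0 and 1 counts. Reads that fit both copies may have been assigned to neither, and the setting used for such reads was not given in the sources used here, so the level of Npy is uncertain. Sympathetic neurons also make neuropeptide Y. Of their markers, Hand2 had 0 to 2 counts and Dbh 16 to 48 counts per library. Chrna3, which other neurons share, measured 53.5 and 36.5 CPM with vehicle and 63.4 and 59.7 CPM with cisplatin. No other neuropeptide gene described here had such a copy or an overlapping gene.

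Adcyap1 (ENSRNOG00000049882, chromosome 9, 121706979 to 121725716, minus strand) encodes PACAP, a peptide of the family of vasoactive intestinal peptide that is present in small neurons and is induced by nerve injury. It measured 106 and 46.4 CPM with vehicle and 85.8 and 58.3 CPM with cisplatin. Both cisplatin libraries lay between the vehicle libraries, and the log2 fold change was -0.08 (SE 0.42, 95% interval -1.13 to 0.97, edgeR adjusted p = 0.959). Without vehicle replicate 1, whose spinal cord and muscle markers were high, the value was 0.64. Their part in this result was not tested.

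The peptides of itch neurons gave an uneven picture. Sst (ENSRNOG00000001837, chromosome 11, 80358211 to 80359444, plus strand) encodes somatostatin. It measured 130 and 48.3 CPM with vehicle and 129 and 86.4 CPM with cisplatin, so replicate 1 of each group was the higher and the groups overlapped. The log2 fold change was 0.28 (SE 0.48, 95% interval -0.92 to 1.48, edgeR adjusted p = 0.869), and it was 1.16 without vehicle replicate 1 and -0.26 without vehicle replicate 2.

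Nppb (ENSRNOG00000008141, chromosome 5, 164796185 to 164797531, plus strand) encodes natriuretic polypeptide B, the transmitter through which itch neurons excite the spinal cord. It had 61 and 30 counts with vehicle and 139 and 63 counts with cisplatin, or 2.44 and 1.52 CPM against 5.47 and 2.68 CPM. Both cisplatin libraries were higher, although cisplatin replicate 2 was only just above vehicle replicate 1. The mean level was 1.98 ± 0.645 CPM with vehicle and 4.07 ± 1.98 CPM with cisplatin (SD, n = 2). The log2 fold change of 1.03 was the highest of the 8 genes, with SE 0.48, a 95% interval of -0.17 to 2.24, an unadjusted p of 0.0801 and an adjusted p of 0.539 in edgeR. Without cisplatin replicate 1 it was 0.43 and without cisplatin replicate 2 it was 1.45. Markers of itch neurons other than peptides overlapped between the groups. They summed to 31.1 and 13.4 CPM with vehicle and 24.5 and 13.0 CPM with cisplatin, a sum led by Il31ra in replicate 1 of each group. Il31ra measured 21.1 and 5.49 CPM with vehicle and 11.9 and 3.53 CPM with cisplatin, so that vehicle replicate 1 was the highest. Its log2 fold change was -0.79 (SE 0.79, edgeR adjusted p = 0.752). Osmr and Cysltr2 had log2 fold changes of 0.32 (SE 0.29) and 0.26 (SE 0.42).

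Nts (ENSRNOG00000004179, chromosome 7, 44111151 to 44121130, minus strand) encodes neurotensin, which in this system is better known from spinal dorsal horn interneurons than from ganglion neurons. It had 58 and 5 counts with vehicle and 10 and 22 counts with cisplatin, and the exact Poisson interval of vehicle replicate 1, 44.04 to 74.98 counts, lay above those of the other 3 libraries. The log2 fold change was -0.998 (SE 0.99, 95% interval -3.47 to 1.48, edgeR adjusted p = 0.749), and it was 1.37 without vehicle replicate 1. In that library Olig1 had 443 counts against 6 to 9 in the others, Olig2 56 against 0, Slc32a1 77 against 0 to 7 and Aqp4 718 against 30 to 132. The part of the spinal cord markers in the Nts values was not tested.

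**Figure D2:**
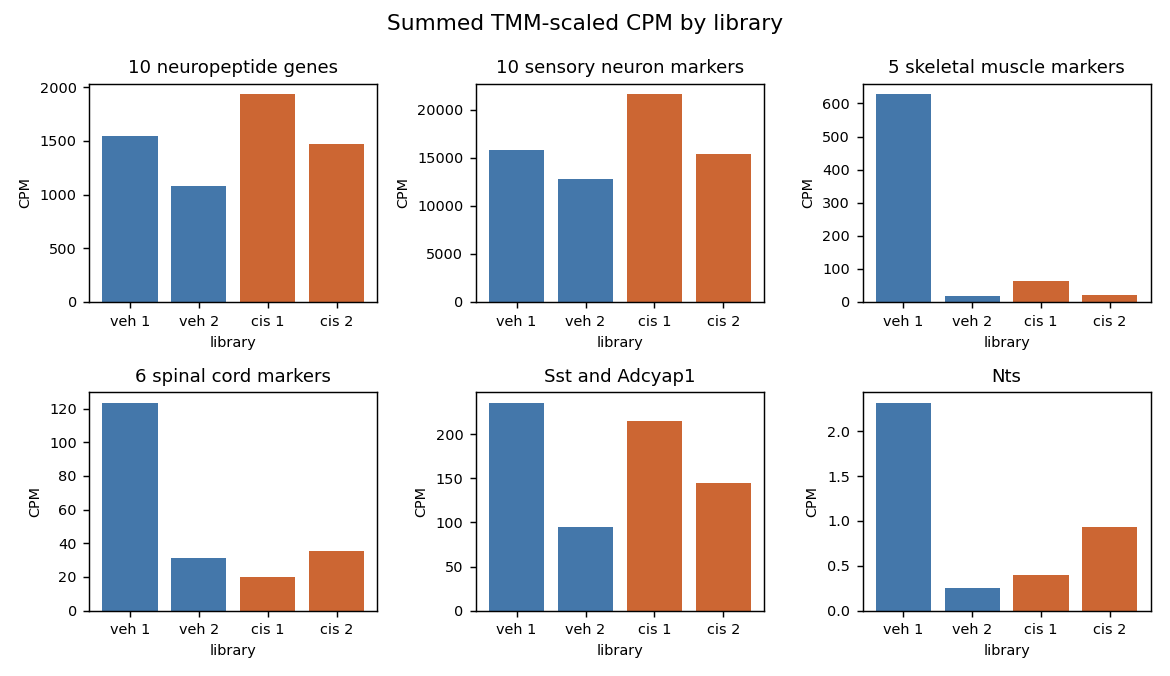
TMM-scaled CPM in each library (bars, linear axes from 0, vehicle blue and cisplatin orange) summed over the 10 neuropeptide genes, the markers of sensory neurons, skeletal muscle and spinal cord, and Sst with Adcyap1, and for Nts alone. The neuropeptide sum follows the sensory neuron markers from 1083 CPM in vehicle replicate 2 to 1937 CPM in cisplatin replicate 1, and Nts, the muscle markers and the spinal cord markers are all highest in vehicle replicate 1.

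The summed level of the 10 genes was 1549 and 1083 CPM with vehicle and 1937 and 1467.5 CPM with cisplatin. Cisplatin replicate 2 lay inside the vehicle range, and the log2 ratio of the group means was 0.37. That ratio was 0.14 without vehicle replicate 2, 0.17 without cisplatin replicate 1, 0.56 without cisplatin replicate 2 and 0.66 without vehicle replicate 1. Markers of sensory neurons summed to 15828 and 12808 CPM with vehicle and 21649 and 15410 CPM with cisplatin, and 9 of these 10 markers had log2 fold changes above 0, with 0 called in edgeR and a median of 0.36. Single markers ran from -0.11 (Pou4f1) to 0.77 (Uchl1). Nefm led the sum, at 7208 and 5835 CPM with vehicle and 8668 and 6375 CPM with cisplatin. A scaling to that sum thus rests mostly on its most abundant markers. Per 1000 CPM of those markers the peptide sum was 97.9 and 84.6 CPM with vehicle and 89.5 and 95.2 CPM with cisplatin, a log2 ratio of 0.02. Both cisplatin values then lay between the vehicle values. Per 1000 CPM of 6 peptidergic nociceptor markers other than peptides, the peptide sum was 1527.5 and 1583 CPM with vehicle. With cisplatin it was 1484 and 1906 CPM, a log2 ratio of 0.12.

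Scaled to the sensory neuron markers, single peptides lay closer to 0, apart from Adcyap1 and Nts. The log2 fold change was 0.03 for Calca (95% interval -0.68 to 0.75), 0.16 for Calcb, 0.04 for Tac1 and 0.17 for Gal (95% interval -0.73 to 1.07). Sst gave -0.05, Adcyap1 -0.41, Nts -1.23 and Nppb 0.64 (95% interval -0.45 to 1.73), with edgeR adjusted p of 0.690 for Nppb. That scaling also moved the median of all genes to -0.36, a shift of about the same size. Per 1000 CPM of neuron markers Nppb was 0.154 and 0.119 CPM with vehicle and 0.253 and 0.174 CPM with cisplatin, and its groups remained apart. Gal also stayed apart on that ratio, by a narrow gap, at 0.424 and 0.508 CPM against 0.511 and 0.538 CPM, whereas Calca overlapped, at 60.5 and 57.7 CPM against 56.2 and 64.6 CPM. The intervals of all 8 genes included 0 under both scalings.

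**Figure D3:**
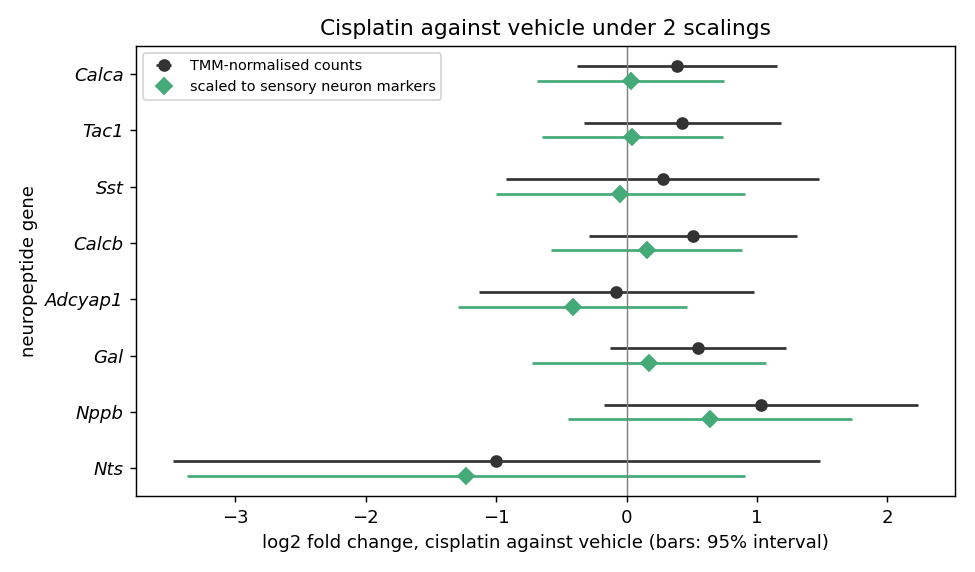
Log2 fold change (cisplatin against vehicle) of the 8 tested neuropeptide genes, with 95% intervals as bars, from TMM-scaled counts (black circles) and from counts scaled to 10 sensory neuron markers (green diamonds). Every interval crosses 0, and Calca moves from 0.38 to 0.03 and Nppb from 1.03 to 0.64 between the scalings.

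Several of these peptide genes are known to respond to cyclic AMP and calcium through the cAMP response element, whose core is TGACG and whose full palindrome is TGACGTCA. RefSeq promoters (GRCr8 build, 250 bases before to 50 bases after each start) matched 9 of the 10 genes, Calcb being the exception. The core, on either strand, was in 6 of the 9 and in 21.2% of 33469 promoters, and the full palindrome was in 1 of the 9, Sst, and in 1.83% of promoters. The AP-1 motif TGANTCA, where N is any base, was in 1 of the 9, Nts, and in 7.33% of promoters. The promoters of the 2 main nociceptor peptides, of the injury peptide galanin and of Sst are given because they hold the core at differing distances from the start. Each runs 5′ to 3′ on the strand of the gene, from 220 bases before the start through the first 30 bases of the gene, with the core or palindrome in capitals. Calca is at chr1:178317500-178317749 (minus strand), Tac1 at chr4:36645363-36645612 (plus), Gal at chr1:210084543-210084792 (minus) and Sst at chr11:90461326-90461575 (plus).
Calca: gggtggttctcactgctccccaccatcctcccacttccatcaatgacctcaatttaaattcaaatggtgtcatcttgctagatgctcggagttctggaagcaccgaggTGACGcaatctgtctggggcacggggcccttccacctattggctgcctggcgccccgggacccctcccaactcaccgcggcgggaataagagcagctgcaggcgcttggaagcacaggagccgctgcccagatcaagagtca
Tac1: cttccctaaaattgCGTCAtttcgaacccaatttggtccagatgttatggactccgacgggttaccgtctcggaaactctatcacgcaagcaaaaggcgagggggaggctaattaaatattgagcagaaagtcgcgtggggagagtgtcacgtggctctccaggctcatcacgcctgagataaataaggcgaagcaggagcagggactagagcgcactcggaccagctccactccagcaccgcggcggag
Gal: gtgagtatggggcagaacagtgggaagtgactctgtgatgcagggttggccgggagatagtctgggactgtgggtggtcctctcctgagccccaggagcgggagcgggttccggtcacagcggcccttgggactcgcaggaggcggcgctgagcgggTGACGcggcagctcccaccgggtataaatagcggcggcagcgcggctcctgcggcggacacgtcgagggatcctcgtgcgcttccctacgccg
Sst: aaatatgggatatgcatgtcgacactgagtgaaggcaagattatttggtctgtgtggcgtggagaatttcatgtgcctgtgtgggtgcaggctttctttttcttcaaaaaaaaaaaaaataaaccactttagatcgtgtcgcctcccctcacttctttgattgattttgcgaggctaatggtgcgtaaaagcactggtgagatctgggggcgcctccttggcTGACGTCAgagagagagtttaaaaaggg
The core lay 112 bases before the start in Calca, 206 in Tac1 (minus strand), 63 in Gal, 97 in Vip and 171 in Nts (minus strand), and the Sst palindrome began at base 3 of the annotated transcript. Of the 3 genes whose groups did not overlap, Calca and Gal hold the core and Nppb does not. Among the tested genes whose groups overlapped, Tac1, Sst and Nts hold it, Adcyap1 does not, and Calcb had no promoter matched. A match of letters is a description of these windows and not a measured site. The starts are those of the annotation and were not measured here, so the distances hold for the annotated starts only.

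Receptors of these peptides and of related peptides were measured in the ganglion itself, where they sit on neurons, glia and vessels. Of 29 receptor and receptor subunit genes listed, 19 passed the filter. None was called in edgeR or in DESeq2, 1 (Npr3) had an unadjusted p under 0.05 in edgeR and 2 did in DESeq2. The log2 fold changes were above 0 in 8 and below 0 in 11, with a median of -0.08 beside -0.01 for all genes. Without vehicle replicate 1 the list turned to 14 above and 5 below, with a median of 0.25, and scaled to neuron markers it was 7 above and 12 below. Ramp3, Npr2 and Ramp2, a pair of CGRP-family coreceptor subunits and the receptor of C-type natriuretic peptide, were the most abundant per length and had log2 fold changes of -0.08, -0.22 and 0.36 (-0.18, 0.03 and 0.25 without vehicle replicate 1).

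Npr3 is the clearance receptor that removes natriuretic peptides. It had 580 and 530 counts with vehicle and 132 and 366 counts with cisplatin, both lower, and a log2 fold change of -1.27 (SE 0.51, unadjusted p = 0.0499 and adjusted p = 0.519 in edgeR). Fibroblast markers, which sit beside it here, summed to 5660 and 7498 CPM with vehicle and 2757 and 5402 CPM with cisplatin. Col1a1 led that sum, with a log2 fold change of -0.74, and Col1a2 had -1.59 and Pdgfra -0.71. Dcn, Lum and Slc6a13 had 0.06, -0.17 and 0.64, so the markers did not move together. Their part in the Npr3 values was not tested. Ntsr1, a neurotensin receptor, had 106 and 98 counts with vehicle and 277 and 144 with cisplatin, a log2 fold change of 0.89 (edgeR adjusted p = 0.519). Vipr2, a receptor of vasoactive intestinal peptide and PACAP, had 71 and 43 counts against 138 and 73, a log2 fold change of 0.76 (edgeR adjusted p = 0.565). Both cisplatin libraries were above both vehicle libraries for Ntsr1 and Vipr2, though neither passed the test. Of the 19 receptor and receptor subunit genes, 3 lay above in this way and 4 below, against 20.6% and 21.2% of all genes. Ramp2 was also above. Besides Npr3, those below were Calcrl, Sort1 and Npr1, with log2 fold changes of -0.51, -0.43 and -0.28, which were chosen after their values were seen.

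**Figure D4:**
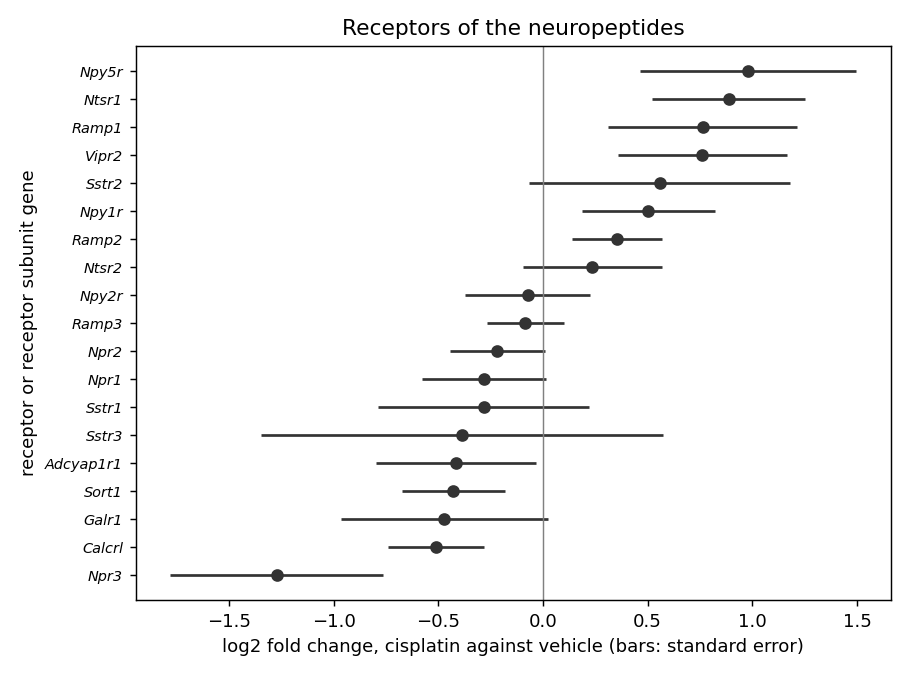
Log2 fold change (cisplatin against vehicle, TMM-scaled counts) of the 19 receptor and receptor subunit genes that passed the filter, with standard errors as bars, ordered by value. The values run from -1.27 for Npr3 to 0.98 for Npy5r, and 8 lie above 0.

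Peptide precursors are cut and packed by enzymes and granins of the secretory granule, which were measured next to their cargo. All 19 of the matched genes of that list passed the filter, with 10 log2 fold changes above 0 and 9 below (13 and 6 without vehicle replicate 1, and 5 and 14 when scaled to neuron markers) and a median of 0.12. None was called and none had an unadjusted p under 0.05, in edgeR or in DESeq2. Cpe, the carboxypeptidase that trims cleaved peptides, Scg5, the chaperone of the convertase PC2, and Scg2, a granin, were the most abundant, with log2 fold changes of 0.14, 0.50 and 0.12 (0.55, 0.88 and 0.54 without vehicle replicate 1). Cpd, a carboxypeptidase of the Golgi, measured 47.8 and 61.7 CPM with vehicle and 24.2 and 43.9 CPM with cisplatin, a log2 fold change of -0.68 (edgeR adjusted p = 0.545).

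Of the other neuropeptide genes, 31 were matched and 14 passed the filter, with 6 above 0 and 8 below and a median of -0.03. Without vehicle replicate 1 there were 8 above 0 and 6 below. None was called in edgeR or DESeq2, and 1, Cck, had an unadjusted p under 0.05 in each. Nmb, for neuromedin B, which itch and pain neurons carry, had 1092 and 573 counts with vehicle and 1586 and 1099 with cisplatin, and a log2 fold change of 0.58 (edgeR adjusted p = 0.540). In scaled CPM both cisplatin libraries were above both vehicle libraries, cisplatin replicate 2 only just. In 4 of the 14 genes both cisplatin libraries were above both vehicle libraries and in 5 both were below, against 20.6% and 21.2% of all genes. Besides Nmb, those above were Pnoc, Nppa and Crh, with log2 fold changes of 0.89, 0.78 and 0.50, and besides the genes described next, Sct was below, at -0.18. Pnoc, Nppa, Crh and Sct were chosen after their values were seen. Nmb was 0.91 without vehicle replicate 1. Cartpt had a log2 fold change of -0.06, which was 1.38 without vehicle replicate 1.

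Cck, Penk, Nppc and Pomc, for cholecystokinin, enkephalin, C-type natriuretic peptide and pro-opiomelanocortin, had both cisplatin libraries below both vehicle libraries in scaled CPM. Cck had 110 and 34 counts with vehicle and 11 and 28 with cisplatin, a log2 fold change of -1.93 (edgeR adjusted p = 0.509), and -1.08 without vehicle replicate 1. Penk had 409 and 202 counts against 201 and 225, a log2 fold change of -0.61 (edgeR adjusted p = 0.560), and -0.22 without that library. The part of its spinal cord markers in these values was not tested. Nppc and Pomc had log2 fold changes of -1.27 and -0.69 (edgeR adjusted p of 0.532 and 0.545).

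Genes that sensory neurons induce after axon injury, as a group beside galanin, did not separate the treatments. Of 18 listed, 13 passed the filter, with 7 log2 fold changes above 0 and 6 below and a median of 0.01 (6 above and 7 below with library size alone, and 4 above and 9 below, with a median of -0.29, when scaled to neuron markers). None was called, and 0 had an unadjusted p under 0.05, by edgeR and by DESeq2. Stmn2, Hspb1 and Gap43, for a tubulin-binding growth cone protein, a small heat shock protein and a growth cone protein, were the most abundant, with log2 fold changes of 0.55, 0.21 and 0.37, the last being 0.81 without vehicle replicate 1. Arg1, an enzyme of arginine breakdown, had 22 and 20 counts with vehicle and 52 and 31 with cisplatin, a log2 fold change of 0.83 (edgeR adjusted p = 0.569). Beside these, macrophage and leukocyte markers summed to 50.9 and 58.3 CPM with vehicle and 51.0 and 55.1 CPM with cisplatin, a sum led by Csf1r. The 8 markers did not move together, and 0 were called in edgeR. Both cisplatin libraries lay above both vehicle libraries in 2, Cd68 and C1qa (log2 fold changes 0.86 and 0.33), against 20.6% of all genes. They lay below in 4, Aif1, Cd163, Adgre1 and Ptprc (-0.32, -0.70, -0.56 and -0.20), against 21.2%.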

How the data were processed

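RNA of lumbar DRGs was sequenced in 4 libraries, 2 per treatment. The authors mapped reads with HISAT2 2.0.5 to Ensembl Rnor_6.0, and the submitters' processing notes also name StringTie 1.3.3b and featureCounts 1.5.0-p3. They deposited raw counts per gene. They also deposited FPKM values, which are the counts per gene length and library total. Settings for strand and for reads that fit several genes are not given in the sources used here. Coordinates are those of the deposited tables, and promoters are RefSeq sequences of the GRCr8 build. No column of per-sample values was left unused. Some marker genes are not reported here.

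Groups and replicate numbers come from the labels, which number the rats within a group, and p-values measure the spread between 2 libraries per group. Protein-coding genes were filtered with edgeR's filterByExpr (14719 of 22293 kept), TMM-scaled and tested by the quasi-likelihood functions glmQLFit and glmQLFTest of edgeR 4.0.16 in R 4.3.3, with treatment as the only term. A call required both a fold change of 1.5 or more and an adjusted p (Benjamini-Hochberg) below 0.05. The SE of each log2 fold change was obtained through the F statistic, and intervals are at 95%. FPKM values were compared with limma 3.58.1 on log2(FPKM + 1) and log2(FPKM + 0.1), which understates the change of low genes. DESeq2 1.42.0 was run on genes with any count, and an adjusted p it leaves out, as for Vip, was kept as missing. The edgeR steps were tested on simulated data.

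The neuropeptide genes and the lists were chosen with earlier results of these data known. Of each list, the 3 kept genes with the highest FPKM were named, and up to 3 with the smallest p among those that did not overlap and had a fold change of at least 1.5. Other normalisations, filters, biotypes, units and tests, a gene length correction, the replicate numbers as a block and leaving out each library were tried. List values under other scalings, in DESeq2 and without vehicle replicate 1 were added after seeing the data. Leaving out a library leaves a group with a lone sample, which is then assumed to vary like the other group.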

Additional observations from a re-analysis of the deposited data

How the results depend on the processing

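Calca, Calcb, Tac1, Gal and Nppb kept a log2 fold change above 0 under all 16 alternatives, Vip under all 4 that could be fitted, Nts stayed below 0 under 14 of 15, Sst above 0 under 12 of 16 and Adcyap1 below 0 under 10 of 16. Sst was -0.049 when scaled to neuron markers and -0.028 with the gene length correction, and ranged from -0.26 to 1.16 when a library was left out, where it was -0.04 without cisplatin replicate 1. Adcyap1 was 0.015 on log2(FPKM + 1), 0.019 on log2(FPKM + 0.1), and -0.55 to 0.64 when a library was left out (0.17 without cisplatin replicate 2). Nts ranged from -1.80 to 1.37 when a library was left out. The cause of these turns was not tested. Beside 0 genes called higher and 1 lower, 1 was called higher with no filter, 1 with at least 10 counts in every library, 1 on log2(FPKM + 0.1), 2 higher and 2 lower on log2(FPKM + 1), and 36 higher and 63 lower in DESeq2. Leaving out a library gave 0 to 4 higher and 0 to 4 lower, with 3 and 2 without vehicle replicate 1, 0 and 4 without vehicle replicate 2, 0 and 0 without cisplatin replicate 1 and 4 and 3 without cisplatin replicate 2. With these, 0 neuropeptide genes were called. Same-numbered libraries come from different rats, and only their titles share numbers, so the replicate block is not a pairing by design. Across genes, replicate 2 minus replicate 1 correlated between the groups (r = 0.51, rho = 0.59). With the replicate block 529 genes were called higher and 1136 lower, and 277 and 805 with the gene length correction added. The block called 1 neuropeptide gene, Nppb (log2 fold change 1.03, edgeR adjusted p = 0.0470), and 0 with the length correction added (Nppb 0.75, edgeR adjusted p = 0.154). Under it Calcb and Tac1 had adjusted p of 0.00961 and 0.0335 in edgeR with fold changes under 1.5 (0.0965 and 0.206 with the length correction), and Adcyap1 had a log2 fold change of 0.0067, or 0.000905 with the length correction. The summed peptide level kept its direction under every scaling, from 0.02 when scaled to neuron markers. Low counts limit Npy, Vip and Nts, at or below 58 in every library, and for Npy the annotated copy also leaves the level uncertain.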
